A study of Schmidtea mediterranea with 6 samples.

Results

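The genes described here are 4 gene models of the planarian Schmidtea mediterranea whose names place them in fatty acid and ketone body metabolism. They are CPT1A (carnitine palmitoyltransferase 1A, SMESG000080051.1), ELOVL4 (a very long chain fatty acid elongase, SMESG000045477.1), FABP3 (fatty acid binding protein 3, SMESG000029500.1) and OXCT1 (3-oxoacid CoA transferase 1, SMESG000080424.1). They were taken by identifier from the 30917 gene models counted in each library, and 4 of the 4 passed the filter on low counts. They were picked because their read counts differed between exoc3(RNAi) and gfp(RNAi) libraries. Their levels in the groups are therefore given as a description without a test.

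RNA was sequenced from X1 cells, the fraction of dissociated planarians that is sensitive to irradiation and mitotically active and that holds the stem cells called neoblasts. In exoc3(RNAi) animals, Smed-exoc3 was depleted by ventral injections of double-stranded RNA in a pair of rounds of consecutive days. Control gfp(RNAi) animals received double-stranded RNA against gfp, a sequence with no match in the planarian genome, and each group had 3 libraries. The study describes asexual animals and biological replicates. By its account, the animals were starved before the first round of injections and stayed without food until the cells were taken. How many animals stood behind a library is not given in the sources used here.

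Long-chain fatty acids reach a cell's enzymes bound to small carriers, the fatty acid binding proteins. For oxidation they are coupled to coenzyme A, and carnitine palmitoyltransferase 1 moves the acyl chain from coenzyme A to carnitine so that it can cross into mitochondria. There, beta-oxidation cuts it into acetyl-CoA. Elongases of the ELO family work in the other direction and lengthen acyl chains in the endoplasmic reticulum. In mammals, 3-oxoacid CoA transferase activates the ketone body acetoacetate with coenzyme A from succinyl-CoA, which lets tissues outside the liver burn ketone bodies. These roles are known mainly from mammals, insects and yeast, and the planarian names rest on sequence similarity.

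The libraries held 28897363 to 37525894 reads assigned to genes, in which 18686 to 19115 gene models were detected with 1 read or more. The targeted gene Smed-exoc3 (SMESG000022604.1) had 31.9, 31.2 and 42.5 CPM (reads of the gene scaled to a common library total) in exoc3(RNAi) and 70.2, 74.0 and 72.7 CPM in gfp(RNAi) libraries. The log2 fold change was -1.04 ± 0.09 (SE, edgeR quasi-likelihood test, adjusted p = 5.7e-07), so transcript remained. With 3 libraries against 3, an exact permutation test (two-sided) cannot go below p = 0.1, the value it had here. Of 14700 genes tested, 7784 (53%) were called at an adjusted p under 0.05, with 25.8% higher and 27.1% lower. For 60.8% the groups did not overlap. Library exoc3(RNAi) replicate 3 stood apart on the second principal component (20.7, against -10.6 and -13.8 for replicates 1 and 2), so values of the 4 genes are also given without it.

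Markers of the sorted cells and of other cell types were measured beside the 4 genes. The neoblast markers were abundant, with smedwi-2 at 3305 to 3563 CPM in exoc3(RNAi) and 4755 to 4926 CPM in gfp(RNAi) libraries. The summed level of 7 neoblast markers was 8254 to 9037 CPM in exoc3(RNAi), with the lowest value in replicate 3, and 10636 CPM or more in each of the gfp(RNAi) libraries. The 20 genes of the study's epidermal progenitor list, chosen by the study among genes that changed in these libraries, were all lower, with a sum of 1525 to 1579 CPM in exoc3(RNAi) and 3079 to 3165 CPM in gfp(RNAi) libraries. Of the neoblast markers 2 were higher and 5 lower, of 4 neural markers 1 was higher and 3 lower, and of 5 muscle markers 1 was higher and 4 lower. All were called, beside 25.8% of all genes tested called higher and 27.1% lower. The lists rest on the study's annotation, in which 99.7% of the described genes were called. These counts and the sums are therefore a description only. Sums of the neural markers (193.0 to 194.3 against 211.5 to 216.9 CPM) and of the muscle markers (445.7 to 464.4 against 540.5 to 555.1 CPM) were also lower in exoc3(RNAi) libraries. None of these markers was at 0. Fewer cells of a type and less RNA per cell cannot be told apart in these bulk libraries, and the part that cell composition has in the levels below was not tested.

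FABP3, the fatty acid carrier, was higher in exoc3(RNAi) libraries. It had 549.6, 543.3 and 573.8 CPM in exoc3(RNAi) replicates 1 to 3, against 475.2, 459.9 and 465.7 CPM in gfp(RNAi) replicates 1 to 3. Every exoc3(RNAi) library lay above every gfp(RNAi) library (the groups did not overlap for 60.8% of all genes tested), and replicate 3 was the highest of its group. The means were 555.6 ± 16.1 CPM in exoc3(RNAi) and 466.9 ± 7.75 CPM in gfp(RNAi) libraries (SD, n = 3 each). This is a log2 fold change of 0.25 ± 0.03 (SE), or 19.0% more, and 0.23 without exoc3(RNAi) replicate 3. The planarian model carries a lipocalin-type domain, the fold of the fatty acid binding proteins, and the study's annotation lists it among published neoblast markers, in a selection of those that changed in these libraries.

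CPT1A, the carnitine acyltransferase of the mitochondrial entry step, was lower in exoc3(RNAi) libraries. It had 135.8, 132.1 and 126.6 CPM in the exoc3(RNAi) replicates, against 164.6, 161.3 and 161.1 CPM in the gfp(RNAi) replicates. The groups did not overlap (60.8% of all genes tested), and replicate 3 was the lowest exoc3(RNAi) library, at 78.0% of the gfp(RNAi) mean. The means were 131.5 ± 4.60 CPM in exoc3(RNAi) and 162.3 ± 1.99 CPM in gfp(RNAi) libraries (SD, n = 3 each). The log2 fold change was -0.30 ± 0.03 (SE), and -0.28 without exoc3(RNAi) replicate 3.

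ELOVL4, the elongase, was higher in exoc3(RNAi) libraries. It had 66.9, 65.6 and 60.6 CPM in the exoc3(RNAi) replicates, against 53.6, 50.2 and 50.4 CPM in the gfp(RNAi) replicates. The groups did not overlap (60.8% of all genes tested), although replicate 3 was again the lowest exoc3(RNAi) library. The means were 64.3 ± 3.30 CPM in exoc3(RNAi) and 51.4 ± 1.94 CPM in gfp(RNAi) libraries (SD, n = 3 each). The log2 fold change was 0.32 ± 0.05 (SE), or 25.1% more, and 0.37 without exoc3(RNAi) replicate 3. The model carries the GNS1/SUR4 domain, which is named after yeast elongases.

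OXCT1, the ketone body enzyme, had the widest gap of the 4 genes between the groups relative to its level. It had 14.9, 15.8 and 14.4 CPM in the exoc3(RNAi) replicates, against 45.4, 43.1 and 41.5 CPM in the gfp(RNAi) replicates. These values rested on 465 to 565 reads per exoc3(RNAi) library and 1334 to 1455 reads per gfp(RNAi) library. All exoc3(RNAi) libraries held 33.3% to 36.5% of the gfp(RNAi) mean, with little difference among them. The means were 15.0 ± 0.716 CPM in exoc3(RNAi) and 43.4 ± 1.96 CPM in gfp(RNAi) libraries (SD, n = 3 each). The log2 fold change was -1.53 ± 0.06 (SE), and -1.50 without exoc3(RNAi) replicate 3.

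**Figure D1:**
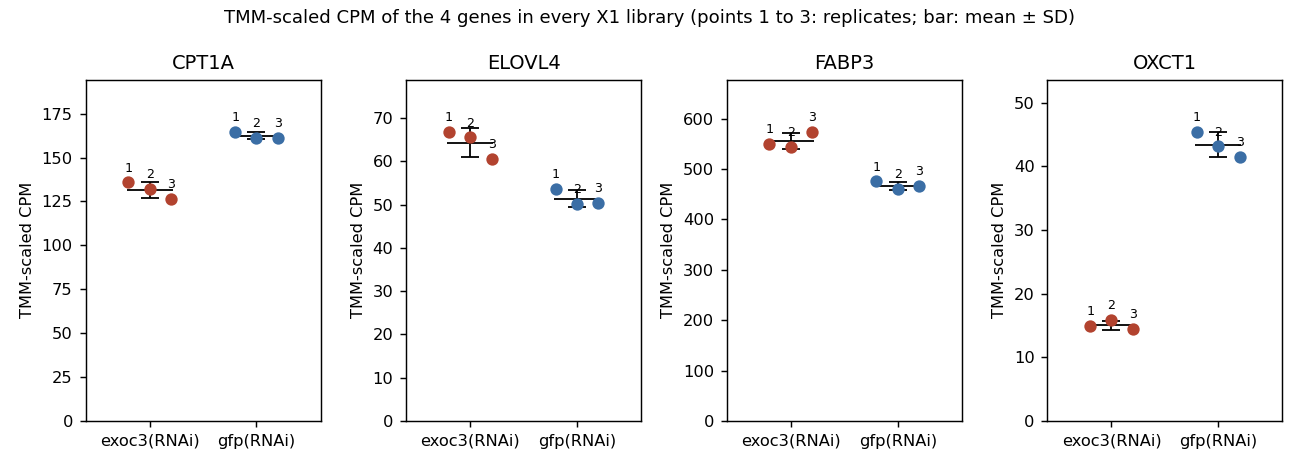
TMM-scaled CPM (vertical axes, from 0) of CPT1A, ELOVL4, FABP3 and OXCT1 in the 3 exoc3(RNAi) and 3 gfp(RNAi) libraries, with points for replicates and black bars for the mean ± SD. The groups are apart for each gene, with exoc3(RNAi) lower for CPT1A (131.5 against 162.3 CPM) and OXCT1 (15.0 against 43.4 CPM) and higher for ELOVL4 and FABP3.

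The 4 genes differed in how far they lay from the bulk of the transcriptome. The median log2 fold change of all 14700 genes was 0.02, and the median absolute value among the called genes was 0.38. CPT1A, ELOVL4 and FABP3 lay below that value, and 58.6%, 61.3% and 49.9% of the tested genes had a smaller absolute log2 fold change. For OXCT1 the share was 98.7%, and 22 tested genes had a larger decrease. The 4 genes are all among the called genes (53% of all genes tested), which the choice of the genes fixed.

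**Figure D2:**
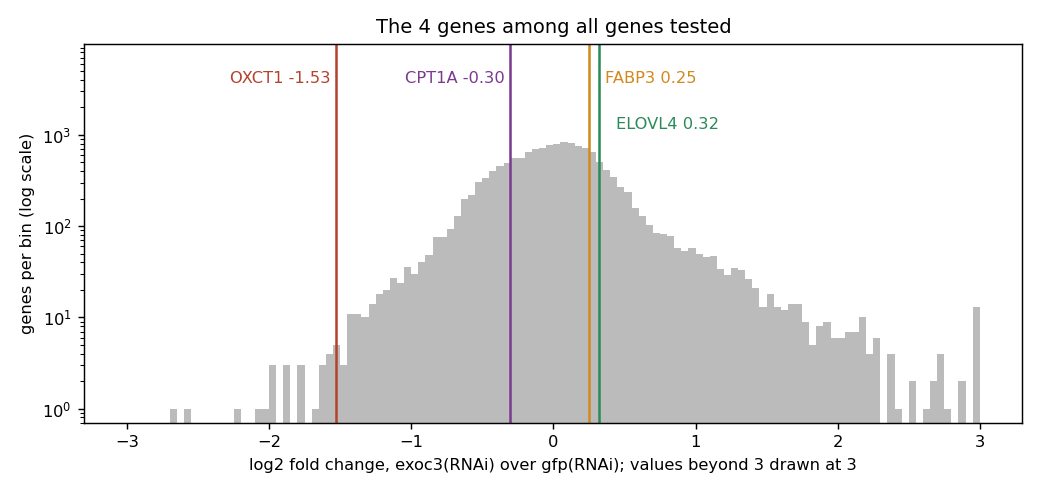
Histogram of the log2 fold change (exoc3(RNAi) over gfp(RNAi), horizontal axis) of the 14700 genes tested, with the number of genes per bin on a log axis, values beyond 3 drawn at 3, and lines at the 4 genes. FABP3 (0.25), ELOVL4 (0.32) and CPT1A (-0.30) lie within the central mass of genes and OXCT1 (-1.53) lies in the lower tail.

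The spread between replicates is given as a description, since the genes were picked among called genes and a call depends on that spread. The coefficient of variation of the CPM was 2.90% in exoc3(RNAi) and 1.66% in gfp(RNAi) libraries for FABP3, where counting error alone gives 0.725% and 0.817%. For CPT1A it was 3.50% in exoc3(RNAi) and 1.23% in gfp(RNAi) libraries, with counting error at 1.49% and 1.39%. OXCT1 had 4.76% in exoc3(RNAi) libraries, where its low count alone gives 4.42%, and 4.52% in gfp(RNAi) libraries, where counting gives 2.68%. ELOVL4 had 5.12% in exoc3(RNAi) and 3.77% in gfp(RNAi) libraries, above its counting error of 2.13% and 2.46%. The spread of OXCT1 within exoc3(RNAi) and of CPT1A within gfp(RNAi) libraries was thus close to what the read number allows. OXCT1 within gfp(RNAi), CPT1A within exoc3(RNAi), and FABP3 and ELOVL4 in both groups had values above it. With 3 libraries per group, these values do not separate the genes by spread. In exoc3(RNAi) replicate 3, CPT1A, ELOVL4 and OXCT1 had log2 deviations of -0.05, -0.08 and -0.06 from their group means, and FABP3 one of 0.05.

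Ratios of reads within a library do not depend on scaling between libraries. They depend on the lengths of both genes, which were not analysed here, so they were compared between libraries and not read as ratios of molecules. CPT1A over FABP3 was 0.247, 0.243 and 0.221 in exoc3(RNAi), against 0.346, 0.351 and 0.346 in gfp(RNAi) libraries. CPT1A over ELOVL4 was 2.05 ± 0.0394 in exoc3(RNAi) and 3.16 ± 0.0790 in gfp(RNAi) libraries (SD, n = 3 each). The differences of the mean log2 ratios were -0.56 and -0.63 (-0.50 and -0.64 without exoc3(RNAi) replicate 3). Since the genes were picked for their differences, with CPT1A lower and FABP3 and ELOVL4 higher, the direction and separation of these ratios were fixed by the choice. OXCT1 was also lower relative to CPT1A, with 0.114 ± 0.00521 in exoc3(RNAi) and 0.267 ± 0.00911 in gfp(RNAi) libraries (SD, n = 3 each). This ratio restates the unequal decreases of a pair of picked genes and is no separate result.

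For the pair of genes that were both higher, the ratio depended on exoc3(RNAi) replicate 3. ELOVL4 over FABP3 was 0.122, 0.121 and 0.106 in exoc3(RNAi), against 0.113, 0.109 and 0.108 in gfp(RNAi) libraries. Replicate 3 of exoc3(RNAi) gave the lowest of the 6 values, and the groups overlapped through it. The other exoc3(RNAi) libraries both lay above the gfp(RNAi) libraries. The difference of the mean log2 ratios was 0.07, and 0.14 without exoc3(RNAi) replicate 3.

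A second gene model, SMESG000080432.1, carries the same name and the same coenzyme A transferase domain as OXCT1. It had 129.3, 128.4 and 121.6 CPM in the exoc3(RNAi) replicates, against 169.1, 166.5 and 164.7 CPM in the gfp(RNAi) replicates. Its log2 fold change was -0.40 ± 0.03 (SE, edgeR quasi-likelihood test, adjusted p = 7.2e-07), and its groups did not overlap (60.8% of all genes tested). It was found through the study's annotation, in which 99.7% of the described genes were called, against 53% of all genes tested. Its call and separation were therefore largely set by that choice. Both OXCT1 models were lower in exoc3(RNAi) libraries, but by unequal amounts.

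The share of SMESG000080424.1 in the reads of both OXCT1 genes describes the same reads on a scale that needs no library scaling. It was 10.3% (exact Clopper-Pearson 95% interval 9.52% to 11.2%), 11.0% (10.1% to 12.0%) and 10.6% (9.75% to 11.5%) in the exoc3(RNAi) replicates. In the gfp(RNAi) replicates it was 21.2% (20.2% to 22.2%), 20.6% (19.6% to 21.6%) and 20.1% (19.2% to 21.1%). The intervals show how precisely each library's share was counted, cover counting error only and are no test between the groups, since OXCT1 was picked for its lower reads. The group means were 10.6% ± 0.331 in exoc3(RNAi) and 20.6% ± 0.522 in gfp(RNAi) libraries (SD, n = 3 each).

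Summed over both OXCT1 genes, the level was 141.5 ± 4.69 CPM in exoc3(RNAi) and 210.1 ± 4.18 CPM in gfp(RNAi) libraries (SD, n = 3 each). The log2 ratio of these means was -0.57, which lies nearer to the second gene's value because that gene held most of the reads. The authors counted uniquely aligned reads, so stretches identical between the genes would be missing from both. How alike the gene models are was not analysed here, and their separate values are uncertain to that extent.

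**Figure D3:**
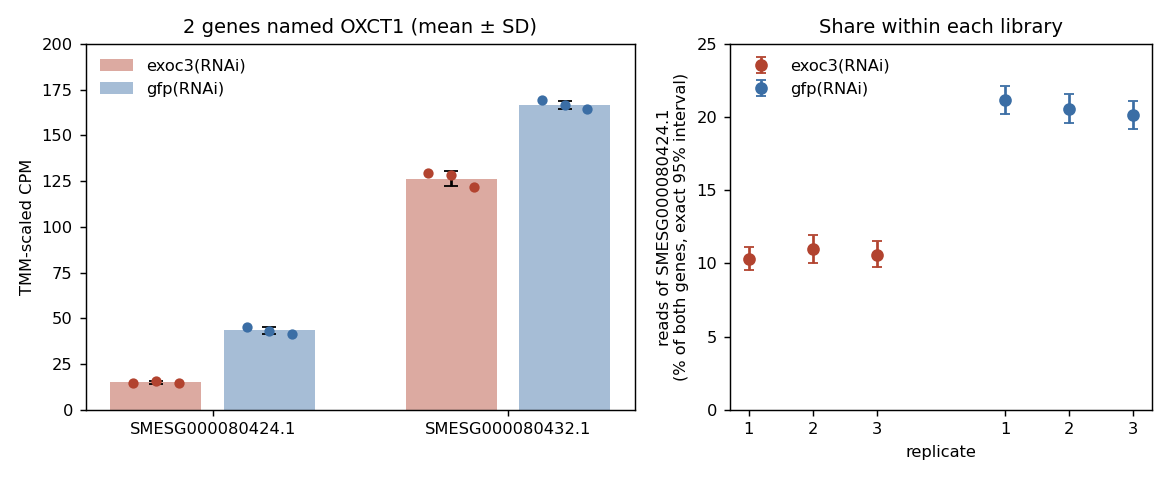
Left, TMM-scaled CPM of the 2 gene models named OXCT1 (bars, mean ± SD; points, libraries) in exoc3(RNAi) and gfp(RNAi). Right, the percent of both genes' reads that belonged to SMESG000080424.1 in each library with exact 95% intervals, between 10.3% and 11.0% in exoc3(RNAi) and between 20.1% and 21.2% in gfp(RNAi) libraries.

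The pathways around the 4 genes were examined through 27 other genes that the study's annotation names or assigns a domain in them. Of these, 14 rose and 13 fell, each with an edgeR adjusted p of 0.018 or lower. Over all genes tested, 25.8% were called higher and 27.1% lower. The annotation covers mainly genes that changed in these libraries, and 99.7% of the 1528 genes with a description were called. The number called is therefore set by the annotation, and only the directions are described. The same limit holds for the counts within each list below. The median log2 fold change of the 27 genes was 0.15, beside 0.02 over all genes tested. With 14 genes above 0 and 13 below, that median is the smallest of the positive values, so nothing is read from it. The groups overlapped for none of the 27 genes, against no overlap for 60.8% of all genes tested, and this too is set by the annotation.

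Among 8 genes of fatty acid activation and beta-oxidation, 6 rose and 2 fell, with a median log2 fold change of 0.27. The 2 that fell were ACSBG2, an acyl-CoA synthetase that activates fatty acids in mammals, and ACADL, the long-chain acyl-CoA dehydrogenase of the first oxidation step. ACSBG2 (SMESG000027204.1) had 114.0 ± 7.87 CPM in exoc3(RNAi) and 176.0 ± 5.02 CPM in gfp(RNAi) libraries (SD, n = 3 each), a log2 fold change of -0.63 ± 0.05 (SE). ACADL had a log2 fold change of -0.30 ± 0.03 (SE), the same as CPT1A at this rounding.

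The 6 that rose include genes of the dehydrogenase and thiolase steps. A gene with a 3-hydroxyacyl-CoA dehydrogenase domain (SMESG000050288.1) had the largest change, with 25.9 ± 0.765 CPM in exoc3(RNAi) and 16.8 ± 0.699 CPM in gfp(RNAi) libraries (SD, n = 3 each), a log2 fold change of 0.63 ± 0.06 (SE). HADHB (SMESG000070850.1), the thiolase subunit of the mitochondrial trifunctional protein, had the smallest, with 330.3 ± 0.755 CPM in exoc3(RNAi) and 274.9 ± 1.69 CPM in gfp(RNAi) libraries (SD, n = 3 each) and a log2 fold change of 0.27 ± 0.03 (SE). The remaining genes were 3HCD (0.32), an acyl-CoA dehydrogenase domain gene (0.40), HSD17B10 (0.27) and DBI, the acyl-CoA binding protein (0.27), as log2 fold changes.

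CPT1A shares its carnitine/choline acyltransferase domain with a gene annotated as choline O-acetyltransferase (SMESG000051357.1). This gene rose, with 78.6 ± 1.22 CPM in exoc3(RNAi) and 62.9 ± 0.687 CPM in gfp(RNAi) libraries (SD, n = 3 each), a log2 fold change of 0.32 ± 0.04 (SE). The direction was opposite to that of CPT1A, at -0.30.

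Of 4 other genes of fatty acid synthesis and elongation, 1 rose and 3 fell, with a median log2 fold change of -0.51. The largest decrease was that of ACACA (SMESG000065082.1), acetyl-CoA carboxylase, which makes the malonyl-CoA that synthesis and elongation use. It had 85.4 ± 4.57 CPM in exoc3(RNAi) and 130.3 ± 3.03 CPM in gfp(RNAi) libraries (SD, n = 3 each), a log2 fold change of -0.61 ± 0.04 (SE). A second model named ACACA (SMESG000056269.1), annotated with the central region of the enzyme alone, had -0.51 ± 0.04 (SE), and whether both models belong to 1 gene was not tested.

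BALDSPOT (SMESG000021565.1) is named after a Drosophila elongase and carries the same GNS1/SUR4 domain as ELOVL4. It fell to 133.9 ± 6.38 CPM in exoc3(RNAi), against 189.5 ± 2.84 CPM in gfp(RNAi) libraries (SD, n = 3 each), a log2 fold change of -0.50 ± 0.04 (SE). The pair of elongases therefore had opposite directions, with ELOVL4 at 0.32. The very-long-chain 3-hydroxyacyl dehydratase 3 gene (SMESG000034959.1), whose mammalian counterpart acts in the elongation cycle after the condensation step, rose with a log2 fold change of 0.34 ± 0.04 (SE).

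Among 7 other genes of ketone body and acetyl-CoA metabolism, the second OXCT1 included, 2 rose and 5 fell, with a median log2 fold change of -0.17. The smallest change was that of CG10932 (SMESG000056408.1), a thiolase domain gene with a Drosophila name, at -0.10 ± 0.03 (SE, edgeR adjusted p = 0.018). That call was lost with libraries scaled by size alone (log2 fold change -0.04, adjusted p = 0.21) and with a filter at 10 CPM (-0.05, adjusted p = 0.12). The 3-hydroxybutyrate dehydrogenase type 2 gene, of the family that oxidises the ketone body 3-hydroxybutyrate, had -0.17 ± 0.03 (SE). ACCOAS, an acetyl-CoA synthase, had -0.35, and CG7920, an acetyl-CoA hydrolase/transferase domain gene, had 0.15.

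The largest changes of this group lay in a pair of models with the same name and opposite directions. ACSS3 is a short-chain acyl-CoA synthetase that activates propionate and similar acids in mammals. The model SMESG000043646.1 rose to 5.52 ± 0.244 CPM in exoc3(RNAi), against 1.46 ± 0.229 CPM in gfp(RNAi) libraries (SD, n = 3 each), a log2 fold change of 1.91 ± 0.13 (SE). Its values rested on few reads, 54, 38 and 49 in gfp(RNAi) replicates 1 to 3 and 159 to 204 per exoc3(RNAi) library. The model SMESG000043645.1 fell to 14.0 ± 1.07 CPM in exoc3(RNAi), against 30.9 ± 0.494 CPM in gfp(RNAi) libraries (SD, n = 3 each), a log2 fold change of -1.14 ± 0.06 (SE). Both are annotated with the N-terminal and AMP-binding domains of the enzyme, and only SMESG000043645.1 with its C-terminal domain. Reads of such similar models are uncertain where they could be shared, and whether both models belong to 1 gene was not tested.

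**Figure D4:**
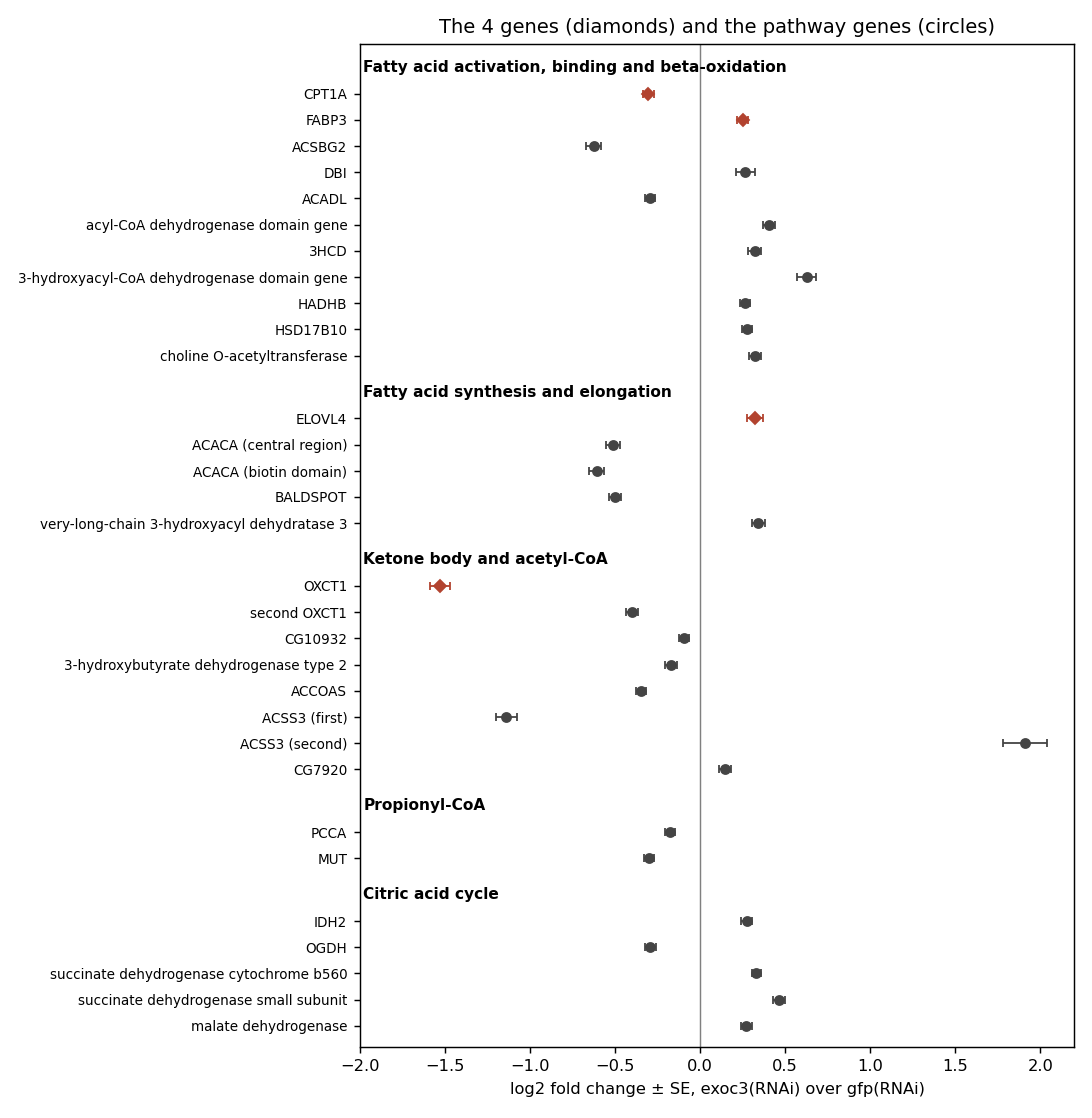
Log2 fold change ± SE (exoc3(RNAi) over gfp(RNAi), horizontal axis) of the 4 genes (red diamonds) and 27 pathway genes (grey circles), grouped by role. OXCT1 (-1.53) and the ACSS3 models (-1.14 and 1.91) lie farthest from 0. In activation and beta-oxidation, 6 of 8 genes lie above 0, while ACSBG2 and ACADL lie below it, as does CPT1A. The pathway genes come from an annotation that covers mainly called genes.

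The genes closest in pattern to each of the 4 were sought among 1434 tested genes with a description and a mean of at least 10 CPM. Likeness was the root mean square difference of log2 CPM over the 6 libraries after centring each gene on its mean, so it reflects the contrast between the groups first. For CPT1A the closest were OGDH (SMESG000020522.1), the oxoglutarate dehydrogenase of the citric acid cycle, at 0.012 log2 units, and UBXN4 (SMESG000047328.1) at 0.014. OGDH had 175.8 ± 4.04 CPM in exoc3(RNAi) and 215.5 ± 2.76 CPM in gfp(RNAi) libraries (SD, n = 3 each).

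For FABP3 the closest were genes of ribosomal proteins, RPS27 (SMESG000052687.1) at 0.013 and the 40S ribosomal protein S14 gene (SMESG000036550.1) at 0.013 log2 units. RPS27 had 1164 ± 31.5 CPM in exoc3(RNAi) and 973.7 ± 21.8 CPM in gfp(RNAi) libraries (SD, n = 3 each). For ELOVL4 they were CLNS1A (SMESG000026632.1) at 0.018 and a gene of a hypothetical protein (SMESG000045324.1) at 0.020. OXCT1 had less close matches by this measure, MOCS3 (SMESG000051640.1), a molybdenum cofactor synthesis gene, at 0.052 and CYP1A1 (SMESG000012534.1), a cytochrome P450 gene, at 0.070 log2 units. The Pearson correlation of OXCT1 over the 6 libraries was 0.999 with MOCS3 and 0.998 with CYP1A1. These genes also fell, with log2 fold changes of -1.44 and -1.42. The correlations therefore mainly reflect the gap between the groups, for which OXCT1 was picked, and nothing more is read from them. MOCS3 had 9.12 ± 0.421 CPM in exoc3(RNAi) and 24.7 ± 0.770 CPM in gfp(RNAi) libraries (SD, n = 3 each).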

How the data were processed

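RNA of sorted X1 cells was sequenced in 3 exoc3(RNAi) and 3 gfp(RNAi) libraries, grouped by sample title. According to the labels and the methods of the study, the authors made stranded mRNA libraries and processed the reads with bcl2fastq 1.8.4, STAR 2.7.2b (genome dd_Smes_g4) and featureCounts 1.6.5. The deposited values are raw counts of uniquely aligned reads per gene model, not normalized, for 30917 gene models per library. Reads that align to several places were left out, which lowers the counts of near-identical genes.

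Counts were analysed with edgeR 4.0.16 in R 4.3.3. Genes were kept by filterByExpr (minimum count 10), so that 14700 remained and 16217 did not. After TMM scaling, the groups were compared by a two-sided quasi-likelihood F test on all 6 libraries without covariates, with Benjamini-Hochberg adjustment over all 14700 genes and a threshold of 0.05. CPM are TMM-scaled, and a positive log2 fold change means a higher level in exoc3(RNAi). The step was also run on 5 sets of simulated counts with 200 changed genes among 14700. In these libraries 53% of the genes were called, so the simulations do not test the step under such broad change. Chi-square statistics per degree of freedom of 1.33 to 7.75 between libraries of a group were above sampling noise, and all 6 libraries were kept.

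The 4 genes and the gene lists were chosen with earlier results of these data known. Names and domains are those the study paired with the identifiers. The genes named are the 4 genes, Smed-exoc3, genes of the same protein family, the largest and smallest change in each pathway list, and the 2 described genes closest to each of the 4 in pattern, and other list genes are given so that each list is complete. Alternatives were DESeq2 1.42.0, scaling by library size, other filters, robust dispersion, a replicate block, a threshold of 0.01 and leaving out each library. Read ratios without exoc3(RNAi) replicate 3 were added after seeing the data. Sequences, coordinates and gene lengths were not analysed here.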

Additional observations from a re-analysis of the deposited data

How the results depend on the processing

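Directions of the 4 genes held under all 12 alternatives with a value. Scaling by library size alone gave -0.25 for CPT1A and 0.30 for FABP3 as log2 fold changes, and a filter at 10 CPM in 3 libraries gave -0.26 and 0.30. Those settings moved the median of all genes by 0.05. Over all alternatives, ELOVL4 ranged from 0.29 to 0.38 and OXCT1 from -1.57 to -1.48. With each library left out in turn, the ranges were -0.33 to -0.28 for CPT1A, 0.29 to 0.37 for ELOVL4, 0.23 to 0.27 for FABP3, -1.57 to -1.49 for OXCT1 and -1.20 to -0.96 for Smed-exoc3. The genes called numbered 6642 to 8115 with a library left out, 6527 with DESeq2 and 5612 with the 10 CPM filter, against 7784. Of the 27 pathway genes, 26 kept direction and call at an adjusted p under 0.05 under each alternative that tested them, CG10932 was the exception, and the ACSS3 model SMESG000043646.1 was not tested with the 10 CPM filter.

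Replicate numbers did not pair the libraries, since same-numbered deviations correlated at -0.01, 0.01 and -0.03. A replicate block gave 7642 calls and log2 fold changes of -0.30 for CPT1A, 0.32 for ELOVL4, 0.25 for FABP3, -1.53 for OXCT1 and -1.05 for Smed-exoc3, with 14 pathway genes higher and 13 lower. Depth limits OXCT1 most, whose spread within exoc3(RNAi) was near counting error.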

Other observations

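The acetyl-CoA made from fatty acids and ketone bodies enters the citric acid cycle. Of 5 cycle genes, 4 rose and 1 fell, with a median log2 fold change of 0.27. The genes were picked from the annotation that covers mainly called genes. The largest change was that of the succinate dehydrogenase cytochrome b small subunit gene (SMESG000075449.1), with 246.9 ± 11.1 CPM in exoc3(RNAi) and 178.9 ± 2.18 CPM in gfp(RNAi) libraries (SD, n = 3 each), a log2 fold change of 0.46 ± 0.04 (SE). The smallest was that of malate dehydrogenase (SMESG000056995.1) at 0.27 ± 0.03 (SE). OGDH was the gene that fell (-0.29 ± 0.03, SE). It was the closest in pattern to CPT1A among the 1434 described genes searched, with UBXN4 nearly as close. IDH2 and the succinate dehydrogenase cytochrome b560 gene had log2 fold changes of 0.27 and 0.33.

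Both genes of propionyl-CoA breakdown, the route for odd-chain fatty acids, fell. They too were picked from the annotation that covers mainly called genes. MUT, methylmalonyl-CoA mutase (SMESG000014335.1), had 192.1 ± 1.50 CPM in exoc3(RNAi) and 236.8 ± 3.31 CPM in gfp(RNAi) libraries (SD, n = 3 each), a log2 fold change of -0.30 ± 0.03 (SE). PCCA, a propionyl-CoA carboxylase subunit (SMESG000034830.1), had the smaller change, at -0.18 ± 0.03 (SE).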
